A study of Mus musculus with 15 samples.

Results

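The comparison set cells on day 16 of chemical induction (D16) against cells on day 4 of the same induction (D4), with 3 libraries each, taken from a series of 15 libraries of mouse brain cells in 5 groups. Both groups are labelled as chemically induced neurons of the C57BL/6 strain, and the series also holds induced cells on day 8 (D8), astrocytes (D0) and primary neurons (PN). No transgene is named in the labels. They give neither the chemicals nor the age of the animals, do not tell whether the 3 samples of a group came from separate cultures, and mention no sorting of the cells. A p-value here thus sets a difference against the scatter of 3 samples of each group, and part or all of that scatter may be technical. All 6 libraries come from cultures labelled as exposed to the induction, so the comparison describes the interval between both days and not the effect of the chemicals. The genes described are those listed at 1 FPKM or more (a level scaled to transcript length and to library size) in at least 3 of the 6 libraries, which held for 12916 of 24346 gene symbols. Of the other 11430 symbols, 5963 were listed at 0 in all 6 libraries. At the edge of this rule, the 440 genes that reached 1 FPKM in exactly 3 libraries had a median mean level of 1.18 FPKM, and the 330 that did so in exactly 2 had 0.841 FPKM.

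In chemical reprogramming, small molecules are used in place of added transcription factors to move a differentiated cell towards another fate. Astrocytes are the glial cells that buffer transmitter and ions around synapses, can re-enter the cell cycle in culture, and take on a reactive state with high Gfap and cytokine-driven genes after injury. Neurons leave the cell cycle for good and build axons, synaptic vesicles, channels and receptors, and many also release peptides from dense-core granules.

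The labels were first checked against marker genes. Neuronal genes such as Snap25 and Syp, which encode a vesicle fusion protein and a vesicle membrane protein, were present at both days, with at least 52.3 FPKM in each of the 6 libraries, while Dcx, a microtubule gene of migrating young neurons, stayed under 1 FPKM at 0.330, 0.209 and 0.414 FPKM at D16 and 0.112, 0.129 and 0.169 FPKM at D4. Map2, a dendritic microtubule gene, was at 33.4, 33.5 and 25.7 FPKM at D16 and 26.9, 24.7 and 25.5 FPKM at D4 (replicates 1, 2 and 3, the order used throughout), and was not called. PN libraries held a mean of 132 FPKM of Dcx and 216 FPKM of Map2. The cells thus carried some neuronal markers at both days and lacked others.

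FPKM totals ran from 598732 to 661015 in D16 libraries and from 611364 to 720956 in D4 libraries. Read depth relative to the mean of the 6 libraries, read from the steps of low FPKM values, was 0.759 to 1.12 in D16 and 0.721 to 1.66 in D4. Libraries of 1 group correlated at 0.966 to 0.983 in D16 and at 0.975 to 0.985 in D4 (Pearson, log2 of FPKM + 1). D16 replicate 2 was the farthest from D4, with a mean correlation of 0.923 with the D4 libraries against 0.952 for D16 replicate 1 and 0.945 for D16 replicate 3. D4 replicate 1 was the nearest to D16 at 0.952, against 0.930 and 0.938 for D4 replicates 2 and 3. These libraries set many of the extremes described below: among the genes called higher at D16, D4 replicate 1 held the highest D4 value in 288 of 408, and among those called lower, D16 replicate 2 held the lowest D16 value in 350 of 582. Without D16 replicate 2 the counts of called genes were 378 higher and 431 lower, and without D4 replicate 1 they were 509 higher and 626 lower.

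A limited set of genes differed between D16 and D4. A gene was called when its adjusted p was below 0.05 and its log2 change, taken as D16 minus D4 on the log2(FPKM + 1) scale, was at least 1 in size. Because 1 is added before the log is taken, the change of a weakly expressed gene comes out smaller on this scale than its ratio. At D16, 408 of the 12916 genes were higher (3.16%, against 2.94% of the 13983 genes tested over the series), and 582 were lower (4.51%, against 4.26%). The count of called genes in each list below is to be read against 3.16% and 4.51%. The other 11926 genes were not called, and 2435 genes had an adjusted p below 0.05 when changes of any size were counted. The median log2 change over the 12916 genes was 0.014, and the median standard error was 0.20. D16 libraries lay entirely above D4 libraries in 20.9% of the genes and entirely below in 19.2%. Among called genes the groups did not overlap in 394 of the 408 that rose and in 568 of the 582 that fell. A lack of overlap is thus common to nearly all called genes and is not a trait of any list below. In size, 31 genes fell by at least 3 on the log2 scale and 8 genes rose by as much. The level rule itself sets some directions, since 82 genes reached 1 FPKM in the needed 3 libraries only at D16 (31 called higher) and 217 only at D4 (123 called lower). Only at D16 were 3 channel genes and 1 gene each of the presynaptic, receptor, glutamatergic, cholinergic and neuronal transcription factor lists. Only at D4 were 4 genes each of the reactive and matrix lists and 3 each of the astrocyte identity and fibroblast lists. The GABAergic, progenitor, actin, interferon and Wnt lists each held 1 at D4 only. Counts for Hox, cell division, histone and ependymal genes are given below.

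**Figure D1:**
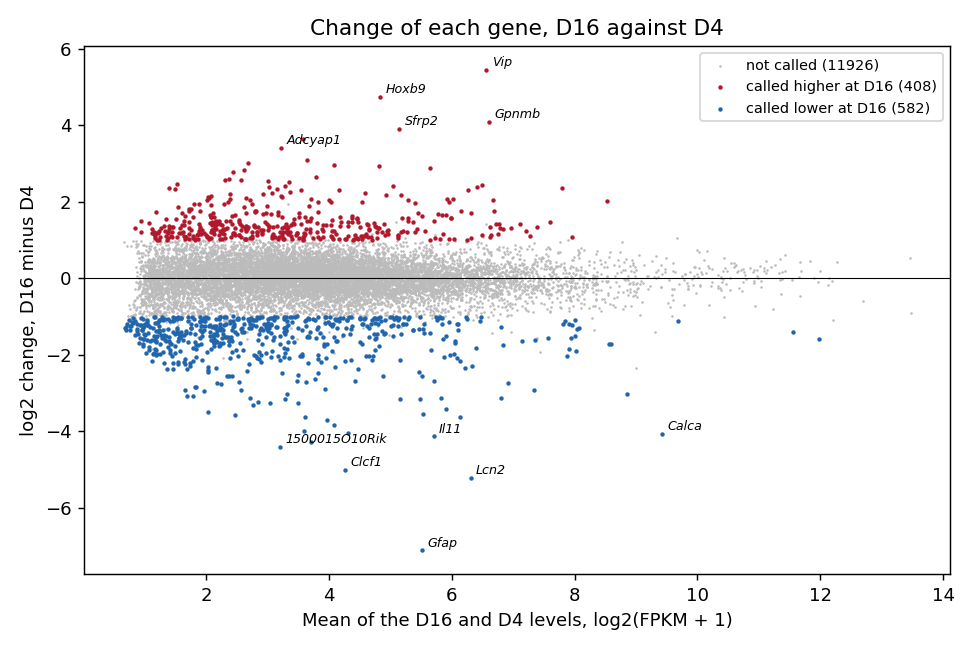
Log2 change of each of the 12916 genes (D16 minus D4, vertical axis) against the mean of the D16 and D4 levels (horizontal axis, log2 of FPKM + 1), with 408 genes called higher at D16 in red, 582 called lower in blue and 11926 not called in grey. The changes of called genes reach 5.44 (Vip) above the line and -7.12 (Gfap) below it.

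The largest rise was in Vip, the gene of vasoactive intestinal peptide, a transmitter of a class of cortical interneurons and of peripheral neurons (chromosome 10, start 5639218, end 5647617, GRCm38). Vip was at 112, 789 and 1190 FPKM in D16 libraries, against 22.2, 7.02 and 5.91 FPKM in D4 libraries (log2 change 5.44 ± 0.69 SE, adjusted p = 0.000136). The D16 libraries differed among themselves by 10.6-fold, yet the lowest of them lay above every D4 library, and leaving out any 1 library left a log2 change of 4.78 to 6.48. Hoxb9, a homeobox gene of the posterior body axis (chromosome 11, start 96271457, end 96276595), followed with 46.6, 138 and 315 FPKM at D16 and 4.70, 3.58 and 3.22 FPKM at D4 (4.74 ± 0.44, adjusted p = 1.55e-05). Gpnmb, a glycoprotein gene of lysosomes and melanosomes, stood at 135, 326 and 878 FPKM at D16, against 30.4, 19.4 and 11.2 FPKM at D4 (4.09 ± 0.67, adjusted p = 0.000851). All 3 genes were lowest in replicate 1 among the D16 libraries and highest in replicate 1 among the D4 libraries, so replicate 1 of each group lay nearest to the other group.

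Sfrp2 encodes a secreted Wnt-binding protein and showed less scatter at D4. It was at 199, 128 and 89.3 FPKM in D16 libraries, against 7.77, 7.63 and 8.25 FPKM in D4 libraries (3.90 ± 0.29, adjusted p = 2.28e-06). Napb, the neuronal form of the SNAP protein that recycles vesicle fusion complexes, was at 34.0, 34.6 and 35.3 FPKM at D16 and 4.95, 2.59 and 2.54 FPKM at D4 (3.08 ± 0.27, adjusted p = 1.07e-05). Kif5a, a neuronal kinesin motor that carries cargo along axons, was at 79.7, 81.4 and 64.8 FPKM at D16, against 11.6, 10.9 and 5.56 FPKM at D4 (2.93 ± 0.29, adjusted p = 2.40e-05). In these 3 genes the groups were far apart relative to their scatter. The others of the 14 largest rises were Ankrd34b (3.65 ± 0.32), the peptide gene Adcyap1 (3.41 ± 0.40), the cation channel gene Trpm1 (3.01 ± 0.64), Hoxb7 (2.96 ± 0.31), Gad1, which encodes an enzyme of GABA synthesis (2.87 ± 0.46), the progesterone receptor gene Pgr (2.83 ± 0.33), the adhesion gene Cntnap5b (2.78 ± 0.29) and Sostdc1, a secreted BMP and Wnt antagonist (2.65 ± 0.63). Trpm1 was uneven at D16, with 2.43, 13.5 and 48.1 FPKM, against 1.74, 0.0401 and 0.650 FPKM at D4, and Sostdc1 lost its call without D4 replicate 2 (adjusted p = 0.0534).

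The largest fall was in Gfap, the intermediate filament gene that marks astrocytes (chromosome 11, start 102887336, end 102900912). Gfap was at 11.9, 0.161 and 0.573 FPKM in D16 libraries, against 417, 350 and 429 FPKM in D4 libraries (log2 change -7.12 ± 0.62, adjusted p = 1.07e-05). Most of what remained at D16 was in replicate 1, and without that library the change was -8.20. Lcn2, a secreted lipocalin that marks reactive astrocytes, was at 26.1, 1.999 and 10.3 FPKM at D16 and 173, 864 and 316 FPKM at D4 (-5.22 ± 0.73, adjusted p = 0.000283). Clcf1, a cytokine of the IL-6 family that signals through the CNTF receptor, was at 3.84, 1.09 and 1.89 FPKM at D16, against 68.1, 74.0 and 191 FPKM at D4 (-5.02 ± 0.45, adjusted p = 1.25e-05). D16 and D4 libraries did not overlap in any of these 3 genes. In bulk samples, fewer cells of a type and less of an RNA per cell cannot be told apart, which holds for each fall and rise given here.

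Il11, another cytokine of the IL-6 family, was at 22.9, 1.83 and 11.0 FPKM at D16 and 89.4, 115 and 420 FPKM at D4 (-4.14 ± 0.70, adjusted p = 0.00107). Calca, which encodes the calcitonin gene-related peptide of sensory neurons, was at 180, 50.4 and 268 FPKM at D16, against 2420, 970 and 4983 FPKM at D4 (-4.06 ± 0.65, adjusted p = 0.000765). D16 replicate 2 had the lowest value of both genes and of Lcn2, while the highest D4 value was in replicate 3 for both Il11 and Calca. The 14 largest falls also included 1500015O10Rik (-4.41 ± 0.88), the protease inhibitor gene A2m (-4.30 ± 0.53), the matricellular growth regulators Ctgf (-4.01 ± 0.82) and Cyr61 (-3.85 ± 0.91), Serpinf1 (-3.71 ± 0.66), the interferon-induced membrane gene Ifitm3 (-3.63 ± 0.55), the secreted Wnt inhibitor Notum (-3.63 ± 0.84) and S100a4 (-3.59 ± 0.36). All 14 have their D16 libraries below their D4 libraries because the choice required it. S100a4 was listed at 0 in D16 replicate 2 and at 1.39 and 0.493 FPKM in D16 replicates 1 and 3, against 20.5, 19.0 and 13.5 FPKM at D4.

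**Figure D2:**
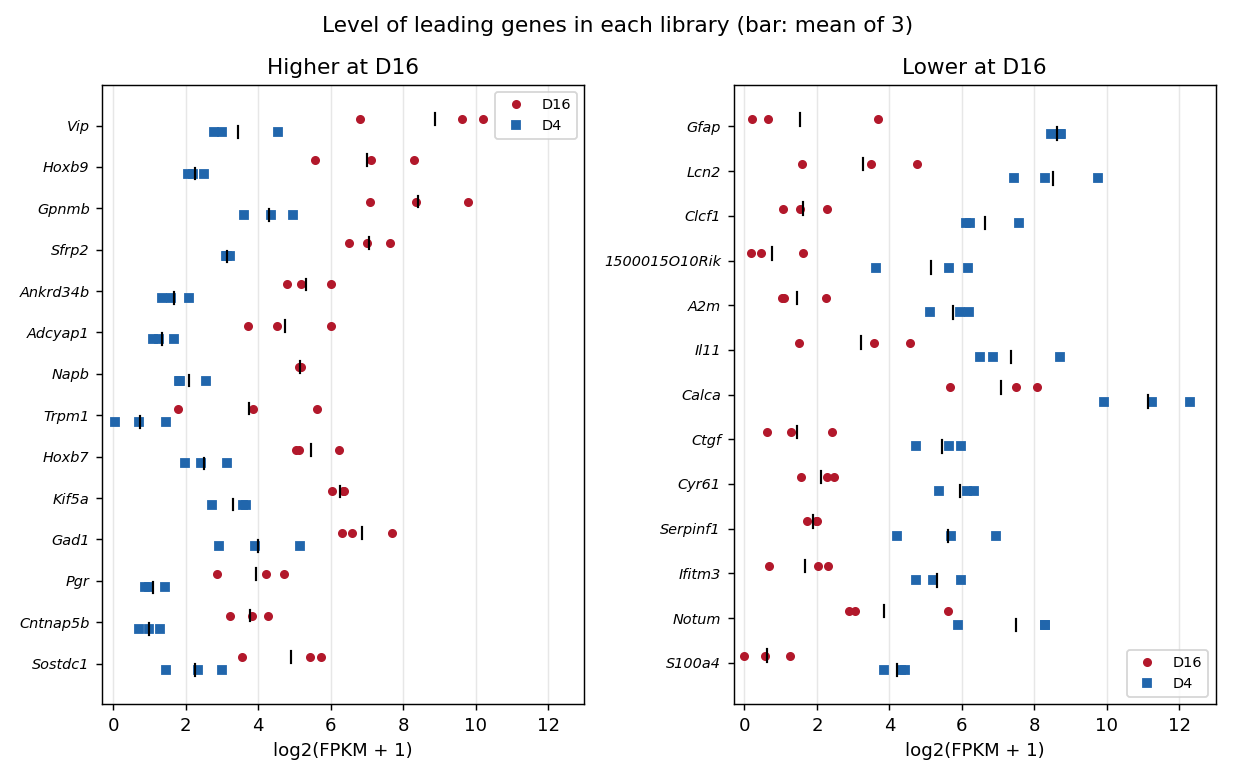
Level of the 14 genes with the largest rise (left) and of 13 of the 14 with the largest fall (right) in each library, as log2 of FPKM + 1 on the horizontal axis, with D16 libraries as red circles above D4 libraries as blue squares, and a bar at the mean of the 3 libraries. The 27 genes were chosen among those without overlap between the groups. The D16 libraries of Vip (112 to 1190 FPKM) and Gfap (0.161 to 11.9 FPKM) scatter widely.

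Many genes of the presynaptic side of the synapse rose. Of 38 listed presynaptic genes, 36 reached the level rule, 17 of them rose, none fell and 19 were not called (17 of 36 against 3.16% over all genes; median log2 change 0.99 against 0.014). Cplx1, a clamp of vesicle fusion, was at 115, 112 and 142 FPKM in D16 libraries, against 34.3, 27.5 and 23.6 FPKM in D4 libraries (2.08 ± 0.21, adjusted p = 2.92e-05). The calcium sensor gene Syt2 also rose (2.04 ± 0.27). Snap25 was at 168, 135 and 213 FPKM at D16 and 75.2, 52.3 and 61.1 FPKM at D4 (1.43 ± 0.27, adjusted p = 0.00229). The Syp vesicle gene rose as well, with 219, 155 and 212 FPKM at D16 and 83.6, 77.7 and 70.3 FPKM at D4 (1.32 ± 0.24, adjusted p = 0.00209). The groups did not overlap in any of the 17 genes, as in 394 of all 408 genes called higher. D4 replicate 1 held the highest D4 value in 15 of the 17, and in 288 of the 408. The Snap25 call was lost with a pseudocount of 0.1 FPKM.

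Of 36 listed cytoskeletal and RNA-binding genes of neurons, 35 reached the level rule, 11 rose, none fell and 24 were not called (median log2 change 0.69). Stmn4, a stathmin that regulates microtubules in neurons, was at 202, 150 and 225 FPKM at D16, against 31.4, 44.5 and 32.2 FPKM at D4 (2.38 ± 0.27, adjusted p = 5.93e-05). The splicing regulator Rbfox1 (1.70 ± 0.22), the neuronal intermediate filament gene Ina (1.61 ± 0.17) and the microtubule-associated gene Map1b (1.57 ± 0.32) also rose. Rbfox3, which encodes the nuclear antigen NeuN of mature neurons, was at 5.94, 5.01 and 5.80 FPKM at D16, against 2.27, 1.77 and 1.32 FPKM at D4 (1.25 ± 0.26, adjusted p = 0.00483), and its mean in PN was 50.1 FPKM. Tubb3, the neuronal beta-tubulin gene, was not called (177, 177 and 150 FPKM at D16, 92.2, 138 and 137 FPKM at D4; adjusted p = 0.436). Among 11 axonal transport kinesins, a list made after the values were seen, Kif5a, Kif5c (1.34 ± 0.17) and Kif1a (1.41 ± 0.25) rose and 8 were not called.

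Receptor and channel genes rose in part, and none of those listed fell. Of 43 listed transmitter receptor and postsynaptic genes, 33 reached the level rule, 7 rose, none fell and 26 were not called (median log2 change 0.66). Glra1, the alpha subunit of the glycine receptor, was at 3.40, 6.32 and 7.57 FPKM in D16 libraries, against 0.458, 0.101 and 0.0576 FPKM in D4 libraries (2.45 ± 0.27, adjusted p = 6.04e-05). Grin1, the obligatory NMDA receptor subunit, was at 42.0, 63.6 and 46.9 FPKM at D16 and 12.3, 8.73 and 9.08 FPKM at D4 (2.23 ± 0.24, adjusted p = 5.00e-05). Glra1 was below 1 FPKM in every D4 library and reached the level only through D16 libraries, so its direction was set by the rule. Grin1 was separated between the groups in every library, as was the AMPA receptor subunit Gria4 (1.32 ± 0.27). Of 41 voltage-gated channel genes in the table, 32 reached the level rule, 8 rose, none fell and 24 were not called (median 0.62). They included the calcium channel subunit Cacnb1 (1.34 ± 0.23) and the sodium channel subunit Scn2b (1.27 ± 0.32, lost without D4 replicate 2). In a list of 4 genes made after the values were seen, the chloride exporter Slc12a5 (2.16 ± 0.32) and the GABA-B receptor subunits Gabbr1 (2.05 ± 0.25) and Gabbr2 (1.60 ± 0.26) rose, and the chloride importer Slc12a2 was not called.

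**Figure D3:**
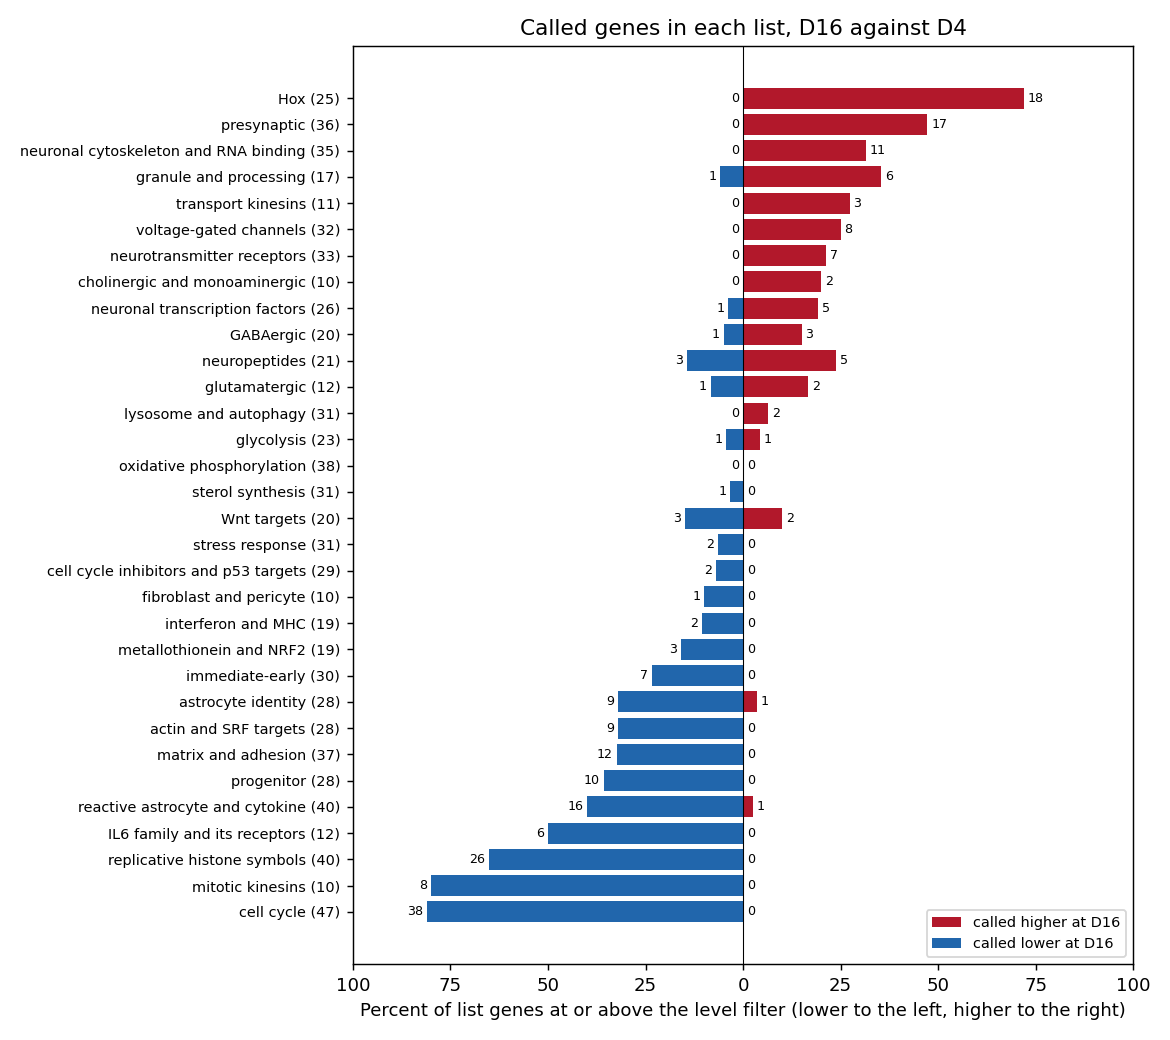
Share of called genes in each list with at least 10 genes that reached the level rule. Genes higher at D16 are in red to the right, and genes lower at D16 in blue to the left. Shares are percent of the list genes that reached the level rule (number in brackets after the list name). Figures at the bar ends are counts of called genes. Among the lists drawn, Hox and presynaptic genes have the highest shares that rose (72.0% and 47.2%, beside 3.16% over all 12916 genes). Cell cycle genes have the highest share that fell (80.9%, beside 4.51%). The level rule itself set the direction of 6 of the 25 Hox genes and 22 of the 47 cell cycle genes, which reached the level on 1 day only.

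Genes that define which transmitter a neuron uses did not follow a single class. Of 24 listed GABAergic genes, 20 reached the level rule. Of these, Gad1, Slc32a1 and Pvalb rose (15% against 3.16% over all genes) and 1 fell (5% against 4.51%). The other 16 were not called, and the median log2 change of the 20 was 0.27. Gad1 was at 78.9, 95.9 and 204 FPKM in D16 libraries, against 34.4, 6.57 and 14.2 FPKM in D4 libraries (adjusted p = 0.000779). Slc32a1, the vesicular transporter of GABA and glycine, was at 51.7, 69.6 and 91.2 FPKM at D16 and 22.4, 4.92 and 15.2 FPKM at D4 (2.42 ± 0.42, adjusted p = 0.00132). Both were highest in D4 replicate 1 among the D4 libraries, and their groups did not overlap. Pvalb, a calcium buffer of fast-spiking interneurons, rose by less (1.41 ± 0.32), and its call was lost with a pseudocount of 0.1 FPKM.

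Of 20 listed glutamatergic genes, 12 reached the level rule, of which the neuronal differentiation factors Neurod2 (1.49 ± 0.18) and Neurod1 (1.34 ± 0.21) rose, the dorsal telencephalic gene Emx2 fell (-1.08 ± 0.33) and 9 were not called (median 0.32). The call of Emx2 was lost without D16 replicate 2 or 3 and without D4 replicate 2 or 3. The vesicular glutamate transporter Slc17a7 was not called, at 23.5, 25.2 and 24.3 FPKM in D16 libraries and 18.5, 12.9 and 11.5 FPKM in D4 libraries (adjusted p = 0.163). A second such transporter, Slc17a6, was at 0.557, 1.33 and 2.24 FPKM at D16, against 0.181, 0.276 and 0.0604 FPKM at D4. It did not reach the level rule and is named as a panel gene only. Its change of 0.96 ± 0.26 also fell short of the minimum (adjusted p = 0.018). Of 25 listed cholinergic and monoaminergic genes only 10 reached the level rule, of which 2 rose and 8 were not called (median 0.60). These were Slc18a3, the vesicular transporter of acetylcholine, at 12.7, 14.96 and 21.9 FPKM at D16 and 5.49, 1.57 and 1.94 FPKM at D4 (2.22 ± 0.31, adjusted p = 0.000311), and the homeobox gene Isl1 of motor and sensory neurons (1.36 ± 0.18). Chat, which encodes the acetylcholine-synthesizing enzyme, was at 0.954, 1.09 and 1.92 FPKM at D16, against 0.814, 0.378 and 0.241 FPKM at D4 (adjusted p = 0.0568). Chat is a panel gene too and did not reach the level rule. Vesicular transporters of GABA, glutamate and acetylcholine were therefore all listed at D16, at mean levels from 1.37 FPKM (Slc17a6) to 70.8 FPKM (Slc32a1).

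Among 26 neuronal transcription factor genes that reached the level rule, of 36 in the table, Scrt1, Tlx2, Myt1, Runx3 and Ebf3 rose, Sox4 fell and 20 were not called (median 0.54). Scrt1, a zinc finger repressor of neurons after division, was at 72.0, 94.7 and 75.8 FPKM in D16 libraries, against 28.4, 13.96 and 19.9 FPKM in D4 libraries (1.96 ± 0.24, adjusted p = 0.000115). Tlx2, a homeobox gene of peripheral and enteric neurons, was at 1.69, 7.55 and 6.46 FPKM at D16 and 1.45, 0.731 and 1.47 FPKM at D4 (1.35 ± 0.31, adjusted p = 0.00859). Myt1, a zinc finger factor of neuronal differentiation, rose (1.32 ± 0.22), and so did Ebf3 (1.06 ± 0.18). Runx3, a factor of sensory neurons, rested on 1.70, 4.17 and 9.78 FPKM at D16 against 1.28, 0.648 and 1.89 FPKM at D4 (1.26 ± 0.40, adjusted p = 0.0384). Its groups overlapped, and its call was lost when any single library other than D16 replicate 1 was left out. Sox4, which acts early in neuronal differentiation, fell (-1.13 ± 0.31) with a call lost without D16 replicate 2 or 3 and without D4 replicate 2 or 3. The list held 3 genes that rose without D16 replicate 2. Neither Insm1 (adjusted p = 0.138) nor Rest, the repressor of neuronal genes in other cells (adjusted p = 0.403), was called.

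Peptide genes went both ways. Of 28 listed neuropeptide genes, 21 reached the level rule, Vip, Adcyap1, Nts, Tac1 and Nmu rose, Calca, Calcb and Adm fell, and 13 were not called (median log2 change 0.51). Adcyap1, which encodes the pituitary adenylate cyclase-activating peptide, a relative of VIP with shared receptors, was at 12.1, 64.0 and 22.1 FPKM in D16 libraries, against 2.19, 1.14 and 1.41 FPKM in D4 libraries (adjusted p = 8.82e-05). Nts, the neurotensin gene, was at 69.0, 97.1 and 209 FPKM at D16 and 36.7, 14.9 and 37.0 FPKM at D4 (1.99 ± 0.47, adjusted p = 0.00985). Tac1, the gene of substance P, was at 18.8, 39.7 and 48.4 FPKM at D16 and 11.7, 7.36 and 13.03 FPKM at D4 (1.58 ± 0.38, adjusted p = 0.0112). The groups did not overlap in these genes or in Nmu (1.08 ± 0.32). Only 2 of the 5 rises were called without D4 replicate 2 and 3 without D16 replicate 3; the calls of Nts (adjusted p = 0.0544) and Tac1 (0.0564) were among those lost without D4 replicate 2. Calcb, a close paralog of Calca that may share reads with it, fell beside it (-3.56 ± 0.53), as did Adm, which encodes adrenomedullin of the same peptide family (-1.70 ± 0.31). Gal, the galanin gene, was at 304, 59.5 and 320 FPKM at D16 and 168, 72.9 and 163 FPKM at D4 (adjusted p = 0.565, no call).

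All 17 listed genes of dense-core granules and peptide processing reached the level rule, of which 6 rose, Rab27b fell and 10 were not called (median log2 change 0.64). Resp18, a granule protein gene of neuroendocrine cells, was at 254, 87.2 and 328 FPKM in D16 libraries, against 39.0, 27.1 and 40.0 FPKM in D4 libraries (2.44 ± 0.37, adjusted p = 0.000474). The peptide-cleaving convertases Pcsk2, at 24.0, 26.6 and 26.1 FPKM at D16 and 6.14, 6.09 and 4.13 FPKM at D4 (2.06 ± 0.26), and Pcsk1 (2.05 ± 0.32) rose with it. Chgb, which encodes the granule core protein secretogranin-1, rose by less (1.69 ± 0.38). Rab27b, a GTPase of granule docking, fell (-1.32 ± 0.23). D16 libraries were above D4 libraries in each of the 6 genes that rose.

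VIP and PACAP genes are textbook targets of cyclic AMP signalling, and the response element of that pathway has the core TGACGTC. The 250 bases before the RefSeq start site of each gene (GRCm38.p6) were searched for this core on both strands (GACGTCA on the other). It was found in Vip and Adcyap1, which are 2 of the 5 peptide genes that rose, and in Chgb and Pcsk1, 2 of the 6 granule genes that rose. Of the 9831 genes of the comparison that had a window, 5.67% held the core, as did 3.16% of all 27025 windows. Among all genes called higher that had a window, 21 of 289 held it (7.27%). Of the presynaptic and Hox genes called higher, 1 of 11 and 0 of 8 held it. The windows of the leading pair of peptide genes are shown because they hold the match, which is in capitals, and a match is not by itself a used site. The Vip window lies at chr10:5638968-5639217 on the plus strand and that of Adcyap1 at chr17:93198767-93199016 on the plus strand.
Vip: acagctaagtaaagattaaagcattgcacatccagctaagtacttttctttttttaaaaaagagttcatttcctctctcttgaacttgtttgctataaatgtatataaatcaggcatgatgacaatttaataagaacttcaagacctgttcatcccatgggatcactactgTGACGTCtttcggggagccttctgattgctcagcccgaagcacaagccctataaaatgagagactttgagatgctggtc
Adcyap1: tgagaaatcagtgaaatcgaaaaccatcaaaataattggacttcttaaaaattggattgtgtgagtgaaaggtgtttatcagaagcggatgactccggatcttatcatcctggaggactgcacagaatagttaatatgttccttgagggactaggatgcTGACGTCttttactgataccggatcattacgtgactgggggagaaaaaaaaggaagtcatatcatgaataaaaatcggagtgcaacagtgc

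Of the lists with at least 10 genes, the Hox list had the highest share of genes that rose. Hox genes encode homeodomain factors that give position along the body axis, and in the nervous system they are active in hindbrain and spinal cord but not in the forebrain. Of 39 Hox genes in the table, 25 reached the level rule, 18 rose, none fell and 7 were not called (median log2 change 1.37). Of the 25, 6 reached the level only through D16 libraries, so that their direction was set by the rule. These were Hoxa9, Hoxa11, Hoxb3 and Hoxb5, which are counted among the rises, and Hoxa5 and Hoxc9, which were not called. Of the genes that rose, 8 lay in the Hoxb cluster of chromosome 11 (8 of 9 that reached the level), 4 in Hoxa (of 5), 3 in Hoxc (of 6) and 3 in Hoxd (of 5). Hoxb7 was at 32.1, 33.6 and 74.6 FPKM in D16 libraries, against 7.81, 4.36 and 2.92 FPKM in D4 libraries (adjusted p = 3.58e-05). Hoxb8 was at 8.27, 6.67 and 29.6 FPKM at D16 and 1.28, 0.808 and 1.49 FPKM at D4 (2.58 ± 0.35, adjusted p = 0.00026). In both genes the highest value was in D16 replicate 3. That library held the highest value of 16 of the 18 genes that rose, and the highest D16 value of 132 of all 408 genes called higher.

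Among genes of the other clusters, Hoxc10 was at 11.0, 22.3 and 22.4 FPKM at D16 and 1.77, 2.53 and 2.45 FPKM at D4 (2.53 ± 0.23, adjusted p = 1.28e-05). Hoxc9 was at 2.91, 1.63 and 1.198 FPKM at D16, against 0.5002, 0.220 and 0.842 FPKM at D4, and its change of 0.91 ± 0.20 missed the minimum (adjusted p = 0.0055). Within the Hoxb cluster, Hoxb2 rose by 1.34 ± 0.29, Hoxb3 by 1.30 ± 0.26, Hoxb5 by 1.45 ± 0.37, Hoxb6 by 2.10 ± 0.33, Hoxb7 by 2.96 ± 0.31, Hoxb8 by 2.58 ± 0.35, Hoxb9 by 4.74 ± 0.44 and Hoxb13 by 1.14 ± 0.16. Hoxb4 lay among them with a difference of 0.71 ± 0.17 and was not called. In astrocytes (D0) and in PN, the mean levels of all 18 genes that rose were below their D16 and D4 means, and Hoxb9 was listed at 0 in D0 and at a mean of 0.0520 FPKM in PN. With the filter raised to 5 FPKM only 7 Hox genes were left with a call.

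**Figure D4:**
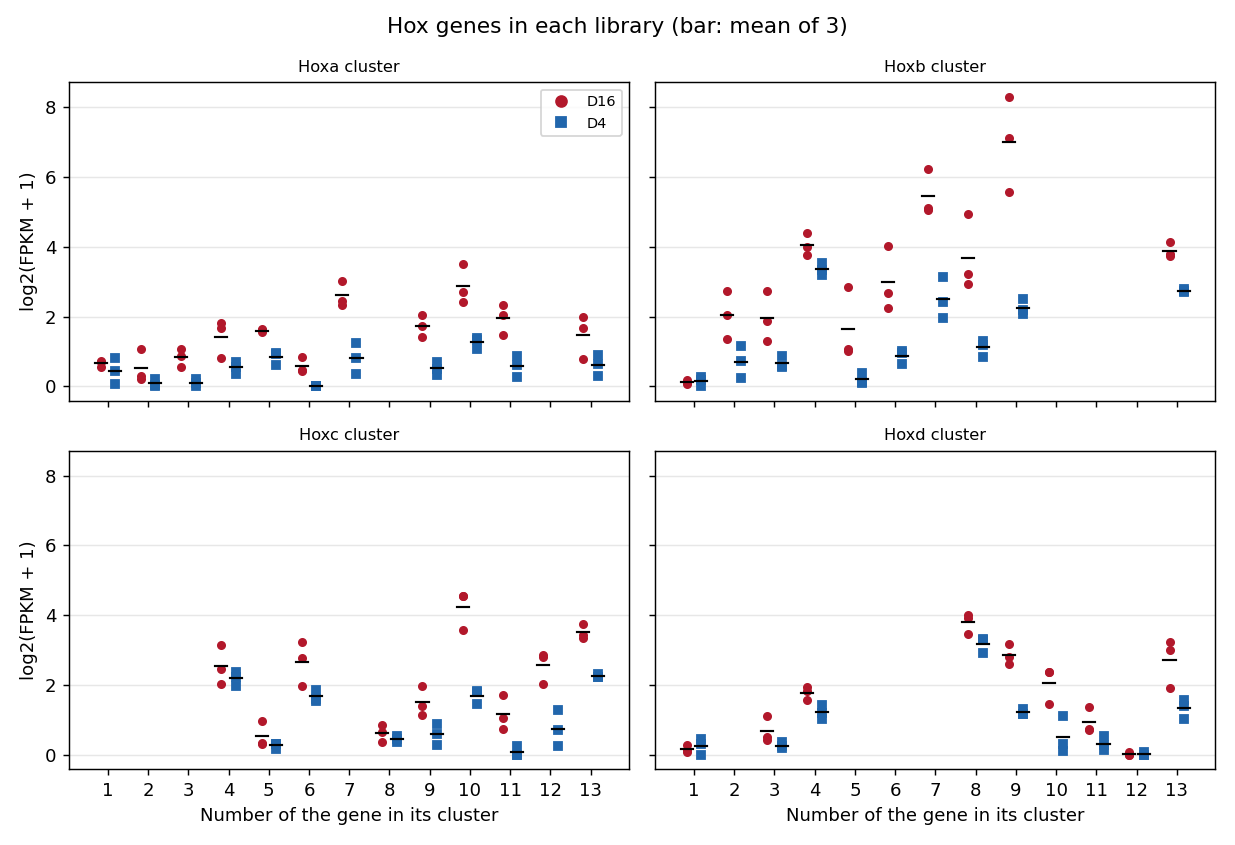
Level of the Hox genes in each library (vertical axis, log2 of FPKM + 1), by cluster (panels) and by number of the gene in its cluster (horizontal axis), with D16 libraries as red circles left of D4 libraries as blue squares and a bar at the mean of the 3 libraries. Hoxb9 shows the widest gap, with 46.6 to 315 FPKM at D16 and 3.22 to 4.70 FPKM at D4.

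Most cell division genes fell. Of 50 listed cell cycle genes, 47 reached the level rule, 38 fell, none rose and 9 were not called (80.9% against 4.51% over all genes; median log2 change -1.61). Of the 47, 22 reached the level only through D4 libraries, so that a lower value at D16 was built into their choice, and the other 25 reached it at both days. Ube2c, which encodes a ubiquitin-conjugating enzyme of the anaphase-promoting complex, was at 0.767, 1.89 and 1.39 FPKM in D16 libraries, against 18.5, 18.8 and 25.3 FPKM in D4 libraries (-3.23 ± 0.22, adjusted p = 9.94e-07). Top2a, the topoisomerase of chromosome segregation, was at 0.264, 0.352 and 0.493 FPKM at D16 and 7.87, 14.9 and 7.37 FPKM at D4 (-2.95 ± 0.26, adjusted p = 1.25e-05). Mki67, the proliferation antigen gene, was at 0.115, 0.250 and 0.0356 FPKM at D16 and 4.08, 6.05 and 3.09 FPKM at D4 (-2.22 ± 0.26, adjusted p = 8.82e-05). Top2a and Mki67 were below 1 FPKM in every D16 library. They are thus among the 22 genes whose lower value at D16 was built into their choice. Ube2c reached the level at both days. The cyclin gene Ccnd1, which couples growth signals to entry into the cycle, remained well expressed, at 50.5, 55.3 and 66.4 FPKM at D16 and 388, 447 and 501 FPKM at D4 (-2.94 ± 0.19, adjusted p = 8.44e-07). Birc5, the gene of survivin, fell by a like amount (-3.14 ± 0.31). Of the 38 genes, D4 replicate 2 held the highest D4 value in 30, beside 308 of all 582 genes called lower. Among mitotic kinesins, a list made after the values were seen, 8 of 10 fell, and 8 of the 10 reached the level only through D4 libraries. Among 29 cell cycle inhibitors and p53 targets, Gadd45b (-2.002 ± 0.37) and Plk2 (-1.198 ± 0.31) fell and none rose, a share of 6.9% that is near the 4.51% over all genes. The call of Plk2 was lost without D16 replicate 2 or 3 and without D4 replicate 3. The cyclin-dependent kinase inhibitor Cdkn1a was at 436.5, 274 and 397 FPKM at D16 and 228, 192 and 232 FPKM at D4, and Cdkn2a at 434, 176 and 433 FPKM at D16 and 171, 154 and 156 FPKM at D4. Their groups did not overlap, and the changes of 0.74 ± 0.19 (adjusted p = 0.0154) and 0.9995 ± 0.30 (adjusted p = 0.0342) were under the minimum. Cdkn2a was called higher under equal totals (1.05), median ratio scaling (1.01) and quantile normalization (1.04), and without D16 replicate 2 (1.43, adjusted p = 0.002), where 2 genes of the list were called higher.

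Genes that peak in mitosis are known to carry CCAAT boxes, bound by the factor NF-Y, and cell cycle homology regions (CHR, TTTGAA), bound by the DREAM and MuvB complexes, close to their start sites. Of the 38 genes that fell, 29 had a RefSeq window of 250 bases before the start. The box CCAAT, which reads as ATTGG when it lies on the other strand, was found in 24 of the 29 (82.8%), against 40.9% of the windows of all genes compared and 37.5% of all windows. The CHR letters TTTGAA, which read as TTCAAA when they lie on the other strand, were found in 11 of the 29 (37.9%), against 11.8% and 18.3%. The windows of Ube2c, Top2a, Cdk1 and Cdc20 are shown, chosen after their values were seen because each holds both motifs. Cdk1 encodes the mitotic kinase and Cdc20 an activator of the anaphase-promoting complex, and both fell (-2.55 ± 0.27 and -2.55 ± 0.28). Capitals mark matches on either strand, and CCAAT and ATTGG overlap in the Ube2c window. The windows lie at chr2:164769679-164769928 (Ube2c, plus strand), chr11:99024190-99024439 (Top2a, minus strand), chr10:69352913-69353162 (Cdk1, minus strand) and chr4:118437344-118437593 (Cdc20, minus strand), and each is printed in the direction of its gene.
Ube2c: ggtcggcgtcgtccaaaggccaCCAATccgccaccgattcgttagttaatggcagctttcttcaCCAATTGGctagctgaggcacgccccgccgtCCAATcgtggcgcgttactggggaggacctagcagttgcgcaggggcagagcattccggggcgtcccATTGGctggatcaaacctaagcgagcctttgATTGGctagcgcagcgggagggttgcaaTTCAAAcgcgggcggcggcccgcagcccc
Top2a: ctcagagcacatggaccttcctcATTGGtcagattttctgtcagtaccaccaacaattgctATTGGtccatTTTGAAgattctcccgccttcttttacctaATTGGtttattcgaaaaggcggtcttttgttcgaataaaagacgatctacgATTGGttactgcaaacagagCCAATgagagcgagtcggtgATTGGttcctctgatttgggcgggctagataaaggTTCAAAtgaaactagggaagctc
Cdk1: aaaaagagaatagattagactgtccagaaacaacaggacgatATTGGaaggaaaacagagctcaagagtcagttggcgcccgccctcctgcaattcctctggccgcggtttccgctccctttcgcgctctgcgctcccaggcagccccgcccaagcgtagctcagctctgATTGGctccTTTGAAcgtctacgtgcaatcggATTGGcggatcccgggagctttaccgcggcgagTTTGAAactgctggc
Cdc20: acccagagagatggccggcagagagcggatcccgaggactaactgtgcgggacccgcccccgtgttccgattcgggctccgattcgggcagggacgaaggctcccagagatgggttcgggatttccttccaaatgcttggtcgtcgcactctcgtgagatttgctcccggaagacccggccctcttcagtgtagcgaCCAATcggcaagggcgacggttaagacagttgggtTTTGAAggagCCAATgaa
By count the Ube2c and Top2a windows each hold 6 CCAAT matches, Cdk1 holds 3 and Cdc20 holds 2, while TTTGAA occurs 2 times in Top2a and Cdk1 and 1 time in Ube2c and Cdc20. A match of this kind describes the letters of the window and says nothing on which factor was bound in these cells.

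Many replicative histone genes, which supply histones during DNA synthesis, fell as well. The list was made from gene symbols after the values were seen. Of 67 symbols, 40 reached the level rule (9 of them only through D4 libraries), 26 fell, none rose and 14 were not called (median log2 change -1.497). All 26 lie in the histone cluster of chromosome 13, as do 8 of the 14 not called. Of the rest, 4 lie on chromosome 3 and 2 on chromosome 11, so most of the list is on chromosome 13. Hist1h4h was at 18.2, 13.5 and 17.6 FPKM in D16 libraries, against 106, 199 and 303 FPKM in D4 libraries (-3.43 ± 0.83, adjusted p = 0.0112). Hist1h4i was at 91.1, 15.3 and 46.4 FPKM at D16 and 323, 236 and 284 FPKM at D4 (-2.75 ± 0.52, adjusted p = 0.00222). Hist1h2bc was at 149, 123 and 125 FPKM at D16 and 415, 534 and 560 FPKM at D4 (-1.91 ± 0.51, adjusted p = 0.0183). The groups did not overlap in these 3 genes or in 25 of the 26. Copies of a histone class are nearly identical, so that reads may be split among them and single values are uncertain. At D8 the 26 histone genes had gone through a median of 30.5% of their log2 change between D4 and D16, and the 38 cell cycle genes through 96.3%. The D0 mean lay above both the D16 and the D4 mean in all 38 cell cycle genes and in 0 of the 26 histone genes, in 15 of which it lay below both.

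Astrocyte genes fell in part. Of 32 listed astrocyte identity genes, 28 reached the level rule, 9 fell, 1 rose and 18 were not called (median log2 change -0.54). Slc7a11, the cystine and glutamate exchanger, was at 3.35, 1.42 and 0.636 FPKM in D16 libraries, against 8.46, 72.1 and 17.1 FPKM in D4 libraries (-3.17 ± 0.55, adjusted p = 0.00129). Mlc1, a membrane protein gene of astrocyte endfeet, was listed at 0 in D16 replicate 1 and at 0.191 and 0.450 FPKM in the other D16 libraries, against 2.71, 13.5 and 11.1 FPKM at D4 (-2.85 ± 0.46, adjusted p = 0.000767). Acsbg1, a fatty acid activating enzyme, also fell (-2.20 ± 0.32). The groups did not overlap in Slc7a11 and Acsbg1. Mlc1 is among the 3 genes of this list that reached the level only through D4 libraries, so its direction was set by the rule. The gene that rose was Slc7a10, a transporter of small neutral amino acids, at 10.4, 12.6 and 16.4 FPKM at D16 and 8.29, 3.58 and 4.07 FPKM at D4 (1.22 ± 0.30, adjusted p = 0.0128), with a call lost without D16 replicate 3 and without D4 replicate 2 or 3. The summed level of the 32 markers was 1147 to 2432 FPKM in D16 libraries and 2422 to 3705 FPKM in D4 libraries, so that the ranges overlapped. Apoe, the apolipoprotein gene, supplied much of these sums and was not called, at 1513, 564 and 1636 FPKM at D16 and 976.5, 2135 and 1149 FPKM at D4 (adjusted p = 0.719).

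Of 49 reactive astrocyte and cytokine genes, 40 reached the level rule, 16 fell, Cd40 rose and 23 were not called (median log2 change -0.94). Besides Lcn2 and Clcf1, Tm4sf1 was at 3.11, 0.627 and 0.852 FPKM in D16 libraries, against 11.7, 48.9 and 16.002 FPKM in D4 libraries (-3.25 ± 0.58, adjusted p = 0.00153). Vcam1, an adhesion molecule induced by cytokines, was at 1.16, 0.454 and 0.779 FPKM at D16 and 8.10, 11.4 and 14.5 FPKM at D4 (-2.76 ± 0.36, adjusted p = 0.000161). Cd40, a receptor of the tumour necrosis factor family, went against the list, at 145, 293 and 127 FPKM at D16 and 37.7, 83.1 and 44.0 FPKM at D4 (1.74 ± 0.47, adjusted p = 0.0186). Its groups did not overlap, and its call was lost without D16 replicate 2 (adjusted p = 0.0924) and without D4 replicate 1 or 3. A list of the IL-6 family and its receptors was made after the values were seen. In it, 6 of 12 genes fell and none rose. Those that fell included the ligands Clcf1 and Il11, the receptors Il6ra (-2.04 ± 0.29) and Osmr (-2.22 ± 0.29), and the feedback inhibitor Socs3, a target of STAT3 (-2.63 ± 0.49). Socs3 was at 8.60, 0.932 and 5.44 FPKM at D16 and 39.7, 25.3 and 25.7 FPKM at D4.

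Progenitor, matrix and contractile genes also fell in part. Of 30 neural progenitor genes in the table, 28 reached the level rule, 10 fell and none rose (median log2 change -0.57). Olig1, a basic helix-loop-helix factor of glial progenitors, was at 1.95, 2.40 and 3.11 FPKM in D16 libraries, against 17.99, 36.5 and 52.0 FPKM in D4 libraries (-3.28 ± 0.39, adjusted p = 8.82e-05). Its relative Olig2 (-2.49 ± 0.42), the matrix gene Tnc of stem cell niches (-2.55 ± 0.42) and Hopx (-2.04 ± 0.46) followed. Hopx, a homeodomain-only protein gene of quiescent stem cells, was at 226, 60.7 and 80.9 FPKM at D16 and 476, 305 and 549 FPKM at D4. D16 replicate 1 was the highest of the D16 libraries there and still lay below every D4 library. Of 44 matrix and adhesion genes, 37 reached the level rule, 12 fell, none rose and 25 were not called (median -0.63), and 7 fell without D16 replicate 2. Sparc, a collagen-binding matrix protein gene, was at 25.6, 6.79 and 11.0 FPKM at D16 and 81.1, 191 and 112 FPKM at D4 (-3.16 ± 0.57, adjusted p = 0.00177). Fmod (-3.09 ± 0.63), Igfbp2, a binding protein of insulin-like growth factors (-3.03 ± 0.57), and Fbln2 (-3.17 ± 0.78) also fell, and Fbln2 lost its call without D16 replicate 2. Of 31 actin genes and targets of SRF and YAP, 28 reached the level rule, 9 fell, none rose and 19 were not called (median -0.62). They included Ctgf, Cyr61, Cald1 (-2.13 ± 0.44) and Cnn1 (-2.10 ± 0.50, lost without D4 replicate 2), while Actb was not called (508, 946 and 462 FPKM at D16, 602, 741 and 830 FPKM at D4).

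Of 30 immediate-early genes, 7 fell, none rose and 23 were not called (median -0.37), and 3 fell without D16 replicate 2. Maff, a small Maf factor, was at 44.5, 25.8 and 33.8 FPKM in D16 libraries, against 157, 531 and 350 FPKM in D4 libraries (-3.15 ± 0.58, adjusted p = 0.00196). The ERK phosphatases Dusp5 (-2.17 ± 0.31) and Dusp6 (-2.07 ± 0.43) fell as well. Ier3 (-1.57 ± 0.47) lost its call without D16 replicate 2 or 3 and without D4 replicate 2 or 3. Of 19 metallothionein and NRF2 target genes, Osgin1 (-1.68 ± 0.34), Gstm1 (-1.196 ± 0.36) and Srxn1 (-1.19 ± 0.22) fell and 16 were not called (median -0.71). Gstm1 lost its call when any 1 D16 library, or D4 replicate 2 or 3, was left out, and Srxn1 without D16 replicate 3. Of 31 stress response genes, Ddit4, an inhibitor of growth signalling (-1.76 ± 0.33), and Creld2 (-1.12 ± 0.23, lost without D16 replicate 2) fell and 29 were not called, a share of 6.45% that is near the 4.51% over all genes. Of 20 Wnt pathway and target genes that reached the level rule, Sfrp2 and Sp5 (2.08 ± 0.44) rose, and Notum, Myc (-1.22 ± 0.27) and Dkk2 (-1.21 ± 0.20, lost without D4 replicate 2) fell. Notum was at 7.35, 6.44 and 48.5 FPKM at D16 and 311, 58.8 and 312 FPKM at D4 (adjusted p = 0.00849), with the highest D16 value just under the lowest D4 value.

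Of 31 lysosome and autophagy genes that reached the level rule, Gpnmb and Gaa, the acid glucosidase gene (1.33 ± 0.21), rose and 29 were not called (median 0.25). The shares called in the lysosome list (6.45% higher), the sterol list (3.23% lower) and the glycolysis list (4.35% each way) are near those over all genes (3.16% higher, 4.51% lower). The same holds for shares called lower in the GABAergic (5%), granule and processing (5.88%) and neuronal transcription factor lists (3.85%). It also holds for shares called higher in the astrocyte identity (3.57%) and reactive astrocyte and cytokine lists (2.5%). Of 31 sterol and fatty acid synthesis genes, Scd1, a fatty acid desaturase, fell (-1.47 ± 0.32) and 30 were not called (median 0.28). Neither Scd2 nor Acly, which are among the most abundant of that list, was called. None of 38 oxidative phosphorylation genes was called by limma (median -0.099, range -0.36 to 0.32). In glycolysis, Slc16a1, a lactate and pyruvate transporter, rose (56.2, 139 and 130 FPKM at D16, 31.7, 35.1 and 28.4 FPKM at D4; 1.64 ± 0.40, adjusted p = 0.0122), a call lost without D16 replicate 2. Pfkfb3, a regulator of glycolytic flux, fell (-1.05 ± 0.30), a call lost when any 1 D16 library, or D4 replicate 2 or 3, was left out. Gapdh was at 1717, 1995 and 1713 FPKM at D16 and 2748, 2912 and 3890 FPKM at D4, and its change of -0.80 ± 0.21 was below the minimum (adjusted p = 0.0179). Of 19 interferon and MHC genes, Ifitm3 and Usp18 (-1.48 ± 0.42) fell (10.5% against 4.51% over all genes), and Usp18 lost its call when any 1 of the same libraries was left out.

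Many markers of other brain cell types were under the level rule. Of 18 microglia and macrophage markers, 15 were under 1 FPKM in all 6 libraries, 5 of them at 0 throughout, and none of the 3 others was called. The list summed to 326 to 846 FPKM at D16 and 339 to 559 FPKM at D4. Much of this was Cd68, which other cells also use in lysosomes, at 194, 723 and 392 FPKM at D16 and 218, 426 and 245 FPKM at D4. Oligodendrocyte markers summed to 33.9 to 38.0 FPKM at D16 and 74.7 to 131 FPKM at D4, with 10 of 18 under 1 FPKM in all 6 libraries and 1 at 0 throughout, and the genes that fell were Olig1 and Olig2, which the progenitor list holds too. Endothelial markers summed to 9.39 to 14.9 FPKM at D16 and 10.2 to 13.5 FPKM at D4, with 11 of 14 under 1 FPKM throughout, 2 at 0, and none called. Ependymal markers summed to 7.24 to 8.72 FPKM at D16 and 13.5 to 22.7 FPKM at D4, with 10 of 17 under 1 FPKM throughout and 1 at 0, and 3 of the 5 that reached the level rule did so only through D4 libraries. In that list Mia (-1.94 ± 0.53, a call lost without D16 replicate 2 or 3 and without D4 replicate 3) and Ccdc153 (-1.23 ± 0.21) fell. Fibroblast and pericyte markers summed to 57.9 to 98.7 FPKM at D16 and 77.0 to 86.2 FPKM at D4, with 7 of 20 under 1 FPKM throughout and 1 at 0. Twist2 fell (-1.08 ± 0.20, lost without D4 replicate 3), and neither Twist1 (44.4, 39.9 and 77.3 FPKM at D16, 38.7, 34.2 and 45.5 FPKM at D4) nor the collagen gene Col1a1 was called. The part of the oligodendrocyte and ependymal differences in the falls described above was not tested.

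The D8 libraries place each change within the interval. This is a description, since the D8 position is read against the same D4 and D16 libraries. Among genes that rose, the D8 mean lay between the D4 and D16 means in 400 of 408, and the median gene had gone through 53.1% of its log2 change by D8. Among genes that fell, it lay between in 522 of 582, with a median of 61.5%. Cell cycle genes and mitotic kinesins were at 96.3% and 98.1%, granule and processing genes at 79.9%, astrocyte identity genes at 75.3% and reactive genes at 70.1%. Presynaptic genes were at 58.4%, Hox genes at 51.7%, transmitter receptors at 45.1% and replicative histones at 30.5%. Among genes named above, Adcyap1 was at 25.2%, Hoxb9 at 37.9%, Vip at 65.9% and S100a4 at 100.2%.

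**Figure D5:**
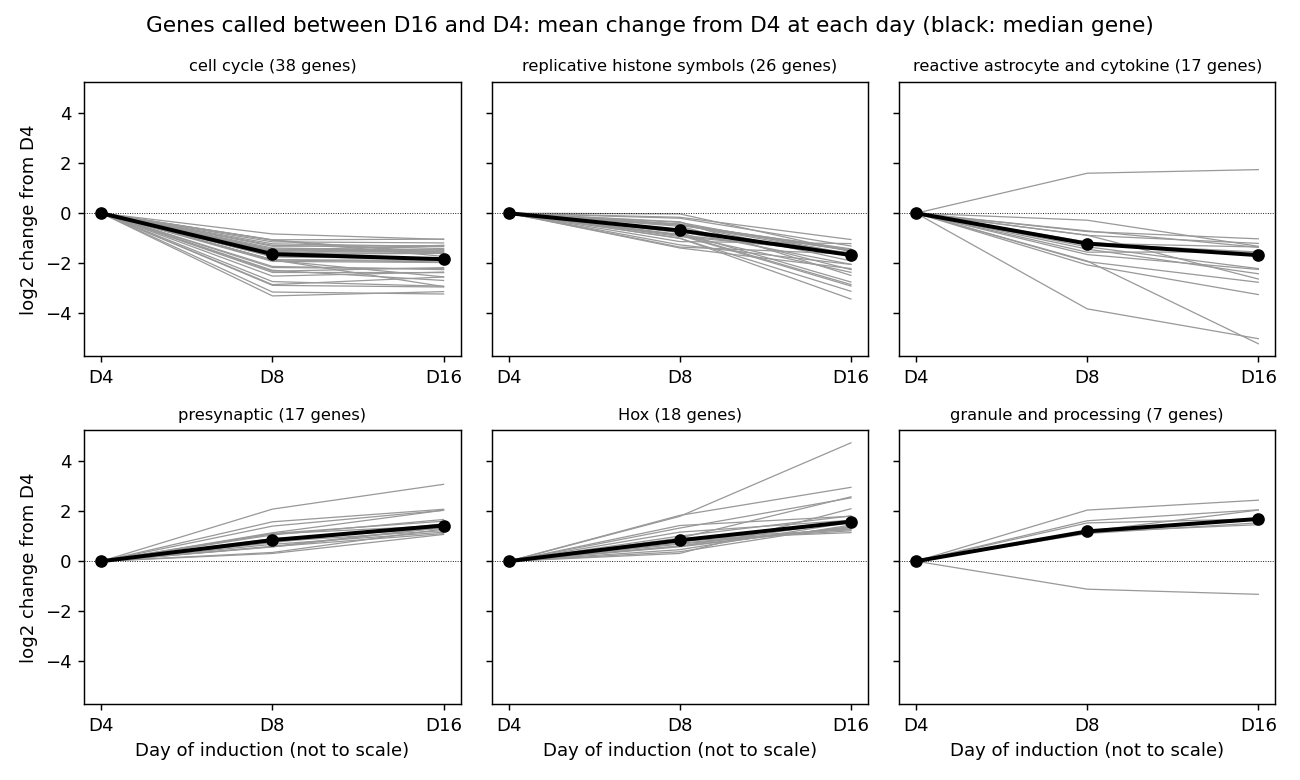
Mean log2 change from D4 at D4, D8 and D16 (horizontal axis, not to scale) of the genes called between D16 and D4 in 6 lists, 1 grey line per gene and a black line for the median gene. Cell cycle genes are near their D16 level at D8 (median 96.3% of the change), replicative histones are not (30.5%), and synaptic and Hox genes lie between (58.4% and 51.7%).

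Levels in astrocytes and primary neurons stood beside these changes as a description. The D16 mean of the 408 genes that rose was above all D0 libraries in 392. It was above all PN libraries in 231, below all in 126 and within their range in 51. Of the 17 presynaptic genes that rose, the PN mean was above both the D16 and the D4 mean in 13, as with Syp at a mean of 196 FPKM at D16, 77.2 FPKM at D4 and 259 FPKM in PN. Of the 5 peptide genes that rose, the PN mean was below both in 4, as with Vip at a mean of 697 ± 545 FPKM at D16 and 11.7 ± 9.13 FPKM at D4 (SD, n = 3 each) and 1.66 FPKM in PN. The D16 mean of the 582 genes that fell was below all D0 libraries in 470 and above all of them in 67. Lcn2, Il11 and Calca belong to the second kind, with D16 means of 12.8, 11.9 and 166 FPKM and D0 means of 1.35, 3.06 and 3.34 FPKM.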

How the data were processed

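Total RNA of mouse brain cells was sequenced with paired ends on an Illumina platform, per the labels' protocols. The deposited file is 1 table of FPKM values for 24346 gene symbols in 15 libraries (5 groups of 3), made by the authors from reads on mm10 (GRCm38), per the submitters' processing notes. The aligner, quantifier, annotation and strand setting are not given in the sources used here. FPKM values carry no read counts, so no counting interval was given, and overlapping or near-identical genes may share reads. Relative depth was read from steps of values under 0.5 FPKM (48.2 to 60.1% of the ratios were whole within 0.02 on the log2 scale).

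Levels were log2(FPKM + 1). The 13983 genes at 1 FPKM or more in at least 3 of the 15 libraries were fitted with limma 3.58.1 in R 4.3.3 (group means, intensity trend, 10 residual degrees of freedom), and an adjusted p is from this fit, with Benjamini-Hochberg adjustment over all 13983, unless the text names an alternative or a left-out library; it is then from limma's refit under that setting, adjusted over the genes tested there. A call needed an adjusted p under 0.05 and a log2 change of at least 1. An exact permutation test of 3 libraries against 3 cannot give a two-sided p below 0.1 and was not used. The genes named were the 14 largest rises and falls without overlap whose higher mean was 5 FPKM or more, as many as 4 called genes each way from each of 32 lists (the 2 of highest level where fewer than 2 were called) and a fixed panel. Some genes that this rule names are not reported here. Other names are marked, complete a count of 5 or fewer, or belong to the Hox list, the IL-6 list or the histone list. The genes, lists and tests were chosen with earlier results of these data known. Gene positions are from GENCODE and promoter windows from RefSeq, both GRCm38; 12432 of the 12916 genes matched 1 GENCODE gene and 9831 had a window.

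Alternatives were another pseudocount, filters, scalings, a fit of the 6 libraries alone, a replicate block, no trend, no minimum change, and leaving out each library. D0 and PN libraries entered the estimate of spread and are otherwise described only.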

Additional observations from a re-analysis of the deposited data

How the results depend on the processing

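Over all alternatives but 1, the counts of called genes were 323 to 509 higher at D16 and 431 to 724 lower, beside 408 and 582. Leaving out each library gave 323 to 509 higher and 431 to 648 lower. Without a minimum on the change, 1183 were higher and 1252 lower. The replicate block gave 415 higher and 605 lower. The deviations of same-numbered D16 and D4 libraries from their group means correlated at -0.027, 0.015 and 0.152. The last was the highest of any D16 and D4 pair, but not every library correlated best with its own number. Whether same-numbered samples belong together cannot be told from these values, since each deviation is from a mean of only 3 libraries. The block ended the calls of Trpm1, Sp5, Myc, Srxn1 and Pvalb, among others, when added to a fit of the 6 libraries. Tlx2 lost its call in the fit of the 6 libraries with and without the block. Without D16 replicate 2, 329 of the 408 and 407 of the 582 kept their calls. Of 2346 values of named genes under alternatives, 2242 kept direction and call, 81 lost the call, 17 gained it and 6 changed sign. Changes of sign occurred in 4 genes that were never called as fitted, when 1 library was left out: Cd68 (-0.036 to 0.91), Cox7c (-0.21 to 0.28), Cox8a (-0.27 to 0.11) and Ly6c1 (-0.52 to 0.33); the cause was not tested. A filter of 5 FPKM, which tests fewer genes, left 7 Hox and 16 replicative histone genes called, and 1 neuronal transcription factor that rose. With 3 libraries a group and a median standard error of 0.20, small changes of scattered genes are the least secure.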

Other observations

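A few well-expressed genes outside the lists were picked after their values were seen. Cltc, the clathrin heavy chain gene of vesicle recycling, was at 448, 1092 and 705 FPKM in D16 libraries, against 241, 136 and 159 FPKM in D4 libraries (log2 change 2.01 ± 0.26 SE, adjusted p = 0.000188 by limma). Hddc2 was at 122.5, 506.5 and 1155 FPKM at D16 and 94.2, 67.1 and 83.7 FPKM at D4 (2.35 ± 0.55, adjusted p = 0.00897). The groups did not overlap in either gene, and D16 replicate 1 was the nearest to D4 in both. Tacr1, the receptor gene of substance P, rose by 2.30, and Calcr, the calcitonin receptor gene, by 2.58. L1cam, an adhesion molecule of growing axons, rose by 2.41. Only the size of the change is given for Tacr1, Calcr and L1cam, so their scatter between libraries cannot be judged from it.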
